A study of Danio rerio with 12 samples.

Results

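Of the 22737 genes in the table, 1 met the rule of at least 20 CPM in both libraries labelled sperm and below 0.5 CPM in all 10 embryo libraries. CPM is a gene's read count scaled to the column total of its library, per M counts. That gene was osm (ENSDARG00000100948), which the deposited coordinates, headed Zv10, place on chromosome 5 from 11464895 to 11471729. The measured levels themselves chose it, so its contrast between the libraries labelled sperm and the embryos is given as a description with no test. Its reads were not confined to the libraries labelled sperm, since 8 of the 10 embryo libraries held at least 1 osm read. The origin of these few embryo reads was not tested.

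The table covers 12 RNA-seq libraries of zebrafish (Danio rerio), 2 for each of 6 groups. Embryos taken at shield stage, 6 h after fertilization, came as wild type of strain Tu, Anp32e null of strain NHGRI, and Anp32e maternal null and Anp32e paternal null, both Tu X NHGRI. A group of sphere-stage embryos had received Anp32e protein, and the last group is labelled as sperm stage of Anp32e null fish; neither has a strain. The labels name neither the mutant allele nor how the material labelled sperm was collected. Anp32e is a histone chaperone that takes the variant H2A.Z off chromatin.

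Totals ran from 13.5 to 47.7 M counts, with 47.7 and 38.7 M in the libraries labelled sperm and at most 25.7 M in embryos. The ANP32E transcript stood at 2285 and 3172 CPM in wild type, at 81.2 and 80.5 CPM in null embryos and at 0.231 and 0.31 CPM in the libraries labelled sperm. In each embryo group other than wild type the replicates were nearly as close as read sampling alone allows, with a chi-square of 1.05 to 1.17 per degree of freedom, so each such pair was counted as 1 sample. In wild type the ratio was 95.2 and in the libraries labelled sperm 42.9. The labels do not say that replicates came from separate fish.

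Oncostatin M, the product of OSM in mammals, is a secreted cytokine of the interleukin-6 family. Its receptors pair the shared chain gp130, encoded by il6st, with a ligand-specific chain and pass the signal through JAK kinases to STAT3. STAT3 in turn raises SOCS3, which shuts the receptor off. In mammals the cytokine is known mainly from activated macrophages, T cells and inflamed tissue. The RefSeq gene table of assembly GRCz12tu lists a gene of the symbol osm as a long non-coding RNA. The match to that table is by symbol only, so whether these counts stand for a cytokine mRNA was not settled.

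The libraries labelled sperm held 1312 and 1282 osm reads, or 27.5 CPM (95% Wilson interval 26.1 to 29.0) and 33.1 CPM (31.3 to 35.0), a mean of 30.3 ± 3.95 (SD, n = 2). Wild-type shield embryos held 2 reads in replicate 1 and 0 in replicate 2, where 3 reads, the limit that a count of 0 allows, would be 0.222 CPM. The null embryo libraries held 8 and 5 reads, or 0.311 and 0.236 CPM. These 2 libraries were the highest of the embryo libraries. Maternal null libraries held 2 and 3 reads (0.108 and 0.127 CPM), and paternal null libraries held 1 and 2 reads (0.0472 and 0.0835 CPM). In the injected sphere embryos 0 and 1 reads were counted, the latter being 0.0435 CPM. The lowest level among the libraries labelled sperm was thus far above the highest embryo level, as the rule required. Intervals and limits cover counting error only.

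**Figure D1:**
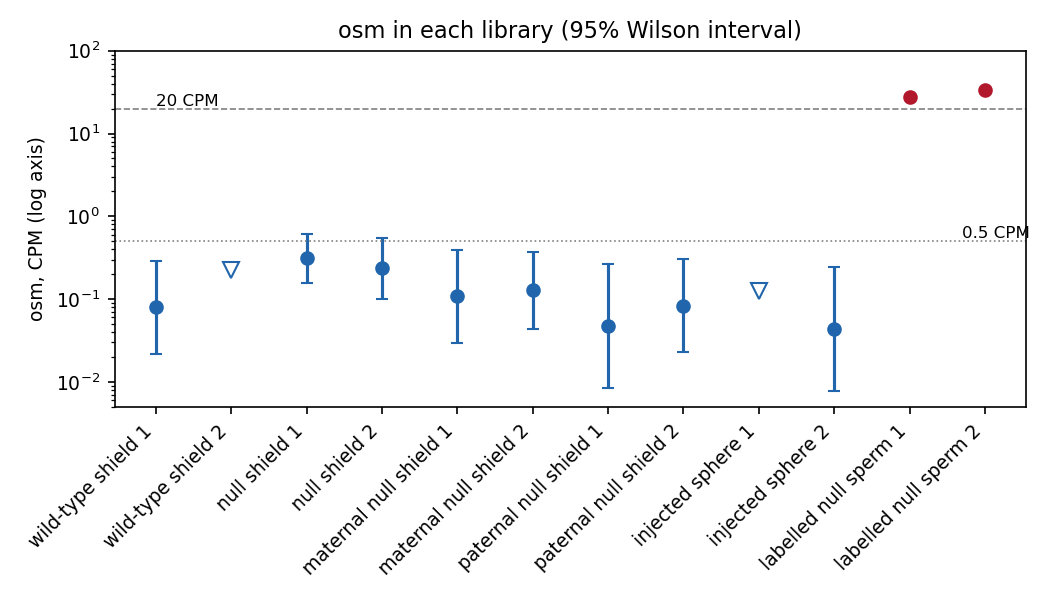
The level of osm in CPM on a log axis in each of the 12 libraries, with 95% Wilson intervals. Open triangles mark the 2 libraries with no osm read, drawn at the CPM that 3 reads would give; dashed and dotted lines mark 20 and 0.5 CPM, and the libraries labelled sperm stand at 27.5 and 33.1 CPM.

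Summed over each group, osm stood at 30.0 CPM in the libraries labelled sperm and at 0.109 CPM over all embryos (24 reads), a 275-fold ratio. Against the null embryos, which carry the same mutation label, the ratio was 108-fold. Among embryos the order was null (0.277 CPM, Wilson interval 0.162 to 0.474), maternal null (0.119, 0.0508 to 0.278), paternal null (0.0665, 0.0226 to 0.195), wild type (0.0517, 0.0142 to 0.189) and injected sphere (0.0213, 0.00375 to 0.120). Neighbours in this order had overlapping intervals. The intervals of the null and the injected embryos did not overlap, but each of these groups counts as 1 sample, so the difference has no replicate check. In bulk RNA, fewer cells of a type and less RNA per cell cannot be told apart.

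The 2 libraries labelled sperm differed for osm by a ratio of 1.203, replicate 2 being higher (log2 difference 0.27). The osm intervals of the 2 libraries did not overlap. Over the 7088 genes with at least 20 CPM in both, the same log2 difference had a median of 0.02 and ran from -0.55 at the 5th percentile to 0.36 at the 95th. The osm difference exceeded that of 87.6% of these genes and lay within that range.

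On the deposited coordinates none of the genes next to osm in order of start overlapped it. Genes that start farther away were not checked for overlap with osm. The nearest gene below it, SPRING1, which takes part in cholesterol sensing, ends 4894 bases away and stood at 5.43 and 6.09 CPM in the libraries labelled sperm, within its embryo range of 4.5 to 26.4 CPM. The nearest above it, castor1, an arginine sensor of the mTORC1 pathway, starts 13349 bases away. It stood at 51.4 and 65.6 CPM against 3.48 to 35.2 CPM in embryos, so that both libraries labelled sperm lay above all embryo libraries. Both neighbours overlap a further listed gene (RNFT2 and ENSDARG00000099828), so their reads could be divided differently. By group sums castor1 was 4.38-fold and SPRING1 0.523-fold the embryo level, beside the 275-fold of osm.

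Few transcripts were both low in embryos and high in the libraries labelled sperm. Of the 7088 genes that reached 20 CPM in both libraries labelled sperm, 6308 (89.0%) also reached 20 CPM in at least 1 embryo library, and the median of their highest embryo level was 77.6 CPM. From the other side, 1981 genes stayed below 0.5 CPM in every embryo library. Of these, 1418 (71.6%) were below 0.5 CPM in at least 1 library labelled sperm too, 252 reached 1 CPM in both, 17 reached 5 CPM and 3 reached 10 CPM.

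**Figure D2:**
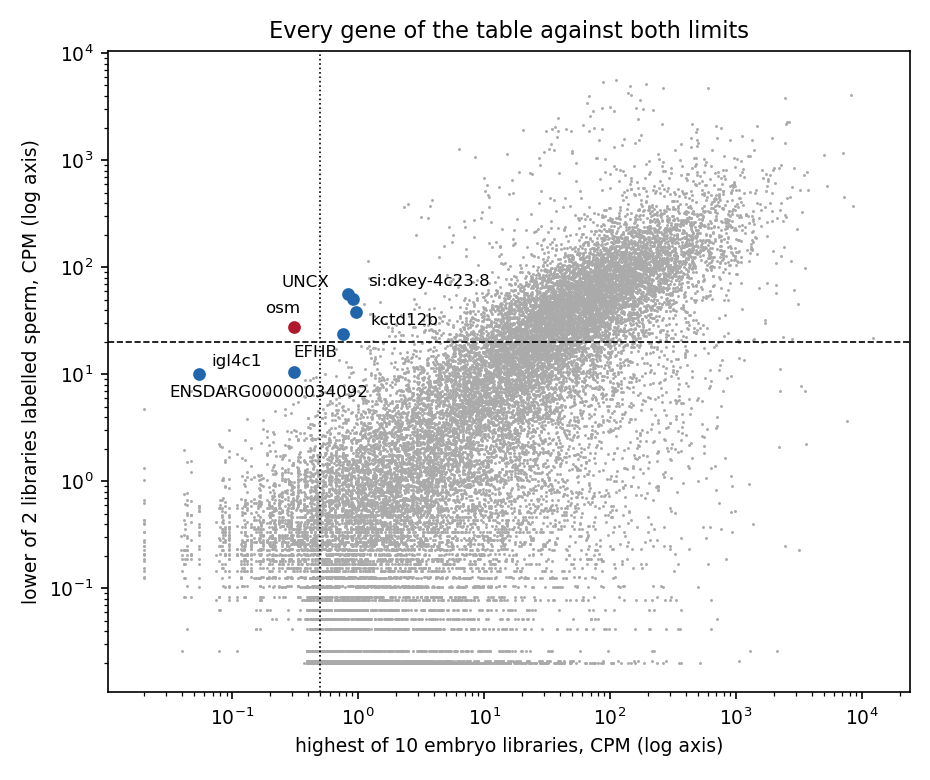
Each of the 22737 genes by its highest CPM in the 10 embryo libraries and its lower CPM in the 2 libraries labelled sperm, both on log axes, with values under 0.02 drawn at 0.02. The dashed line is 20 CPM and the dotted line 0.5 CPM; osm (red) is alone in the upper left field, and the named genes just outside it are in blue.

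Just above the embryo limit stood EFHB (ENSDARG00000069703), which encodes a protein of ciliary and flagellar microtubules. It had 23.7 and 26.6 CPM in the libraries labelled sperm and 0.272 to 0.763 CPM in embryos, with reads in all 10 embryo libraries. UNCX (ENSDARG00000102976), a homeobox gene of somites and neurons, had 77.8 and 56.8 CPM in the libraries labelled sperm and 0.0831 to 0.835 CPM in embryos. A limit of 1 CPM also admitted si:dkey-4c23.8 (50.6 and 66.6 CPM; highest embryo level 0.914) and kctd12b (38.1 and 41.1 CPM; 0.956), whose mammalian relative encodes an auxiliary subunit of GABA-B receptors. For UNCX replicate 1 of the libraries labelled sperm was the higher, for the other 3 and osm replicate 2.

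Just below the floor stood ENSDARG00000034092, with 10.6 and 16.9 CPM in the libraries labelled sperm and at most 0.311 CPM in embryos. The next was igl4c1, an immunoglobulin light chain constant gene, with 10.02 and 10.8 CPM in the libraries labelled sperm. It had 4 reads over all embryos, 1 at most in any embryo library, which gives a 571-fold ratio by group sums. That ratio was above the 275-fold of osm, but the pooled embryo level of igl4c1 has a Wilson interval of 0.00708 to 0.0468 CPM. Whether the ratios of the 2 genes differ was not tested. The level of igl4c1 fell short of the rule's.

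With the embryo limit raised to 2 CPM, a value chosen after seeing the data, 21 genes qualified, of which those named here were picked with their values in view. They included zp2l2, an egg coat gene (115 and 122 CPM in the libraries labelled sperm; highest embryo level 1.21), and foxr1, a forkhead factor of the ovary whose maternal loss disturbs zebrafish embryos (46.2 and 34.7 CPM; 1.33). Others were moto, a regulator of meiosis (23.5 and 23.1 CPM; 1.958), SCD, a fatty acid desaturase (46.4 and 45.6 CPM; 1.103), sox21a, a SoxB factor of the nervous system (36.9 and 44.5 CPM; 1.25), and tac3b, the precursor of a neurokinin B (23.7 and 20.5 CPM; 1.32). In 13 of the 21 the injected sphere embryos had the highest mean of the embryo groups. Null embryos had it in 1, osm. The same counts were not made over all genes, so they are not read as a trait of these 21. CPM also leave out the TMM scaling factors, which were 1.25 and 1.26 in the sphere libraries and 0.863 to 1.04 in the shield libraries. Leaving the sphere libraries out of the rule added foxr1 and sox21a, whose means in sphere embryos were 1.27 and 1.19 CPM and in shield groups at most 0.208 and 0.364 CPM.

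The pathway of osm was then examined in a wider list of ligands, receptors, kinases, transcription factors and inhibitors, written after the gene was known. It also held other cytokines and receptors, such as csf3b, lepa, CSF3R and il6r, so its counts are not of osm signalling alone. The libraries labelled sperm were compared with the mean of the 5 embryo groups on the log scale. The test was edgeR's quasi-likelihood test with Benjamini-Hochberg adjustment over 22712 genes. Of all genes 36.1% were called higher and 32.6% lower. Of the 33 pathway genes other than osm, 13 were higher, 9 were lower and 11 were not called, with a median log2 difference of 0.46 beside 0.05 over all genes. The shares are near those of all genes. Without replicate 1 or 2 of the libraries labelled sperm fewer pathway genes were called lower. Those fits leave 1 sample in that group, and fewer of all genes were then called too. Fewer of all genes were also called in DESeq2, the alternative test.

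Among ligands csf3b, a granulocyte colony-stimulating factor, stood at 15.4 and 17.6 CPM in the libraries labelled sperm and at 0.751 to 2.74 CPM (median 1.4) in embryos, a log2 difference of 3.47 ± 0.29 (SE; adjusted p = 2.39e-06). All 10 embryo libraries were lower. Its paralog csf3a had 0.252 and 0.336 CPM, within the embryo range of 0.0417 to 0.696 CPM. The leukaemia inhibitory factor relative m17 had 0.252 and 0.671 CPM against at most 0.142 CPM in embryos (log2 difference 4.70 ± 0.84, adjusted p = 0.000514), a call not made against null embryos alone (adjusted p = 0.057). il6, the founding cytokine of the family, had no read in either library labelled sperm and 0.087 to 1.37 CPM in embryos. Against a floor of 3 reads over both libraries it was at least 17.2-fold lower than the pooled embryo level. lepa, a leptin gene, also had none there and was at least 9.57-fold lower by the same bound.

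Receptor genes moved both ways. il6st, the gp130 chain, stood at 4.24 and 4.85 CPM in the libraries labelled sperm and at 3.18 to 26.5 CPM (median 17.6) in embryos (log2 difference -1.60 ± 0.31, adjusted p = 0.000786). The ranges overlapped at the lowest embryo libraries. il6r, the interleukin-6 receptor chain, had 1.24 and 0.955 CPM against at most 0.283 CPM in embryos (3.87 ± 0.51, adjusted p = 5.69e-05). lifrb, a leukaemia inhibitory factor receptor, had 0.839 and 0.903 CPM against 0.125 to 1.08 CPM (log2 difference 1.199 ± 0.40, adjusted p = 0.0208). That call was lost against null embryos alone (log2 difference 0.23, adjusted p = 0.752), in DESeq2 (adjusted p = 0.209) and without replicate 1 or 2 of the libraries labelled sperm (0.145 and 0.189). The paralog lifra, at 9.67 and 8.65 CPM against 6.88 to 30.9 CPM, was not called (-0.40 ± 0.29, adjusted p = 0.236).

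The kinase gene jak2a was called higher (15.3 and 15.05 CPM against 2.88 to 23.4 CPM; 0.64 ± 0.25, adjusted p = 0.0373), but not in DESeq2 (adjusted p = 0.0605) or without replicate 1 or 2 of the libraries labelled sperm (0.31 and 0.30). Its paralog JAK2 was higher at 70.5 and 70.2 CPM, with embryos at 18.4 to 68.0 CPM (median 23.4; log2 difference 1.28 ± 0.24, adjusted p = 0.000771). JAK1 had 42.9 and 34.2 CPM against 33.5 to 94.1 CPM and was not called (-0.48 ± 0.28, adjusted p = 0.148), though it was with every library as a sample (adjusted p = 0.0271). STAT3, the transcription factor below them, was lower at 38.8 and 38.4 CPM, with embryos at 80.2 to 126 CPM (-1.38 ± 0.25, adjusted p = 0.000559). The groups did not overlap for STAT3, while for JAK1 both libraries labelled sperm lay within the embryo range.

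Among the feedback inhibitors, SOCS3 stood at 79.4 and 92.8 CPM in the libraries labelled sperm and at 1.7 to 6.32 CPM (median 3.75) in embryos, a log2 difference of 4.60 ± 0.25 (adjusted p = 1.36e-07). SOCS1, which blocks JAK kinases, stood at 35.5 and 43.0 CPM against 0.813 to 3.53 CPM (4.43 ± 0.25, adjusted p = 1.84e-07), and its paralog socs1b at 2.91 and 2.92 CPM against at most 0.292 CPM (5.78 ± 0.48, adjusted p = 2.07e-06). In these 3 genes every embryo library was below both libraries labelled sperm. CISH, a related inhibitor, had 36.1 and 33.5 CPM, and its log2 difference was 2.19 ± 0.23 (adjusted p = 1.09e-05), although 40.6 CPM in an embryo library exceeded both. Its paralog cishb (log2 difference -0.02, adjusted p = 0.978) and PIM1 (0.56, adjusted p = 0.0677) were not called. ptpn11b was lower (-1.79, adjusted p = 0.00365). The phosphatase gene PTPN11, which lies in the same receptor complex, was lower (115 and 111 CPM against 178 to 321 CPM; -1.10 ± 0.26, adjusted p = 0.00285), and its call was lost against null embryos alone (log2 difference -0.78, adjusted p = 0.0736). Without replicate 1 or 2 of the libraries labelled sperm its adjusted p was 0.102 and 0.115.

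Over the pathway list, both libraries labelled sperm lay above all embryo libraries in 8 of 33 genes and below them in 7. Over all genes these shares were 27.1% and 28.2%.

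**Figure D3:**
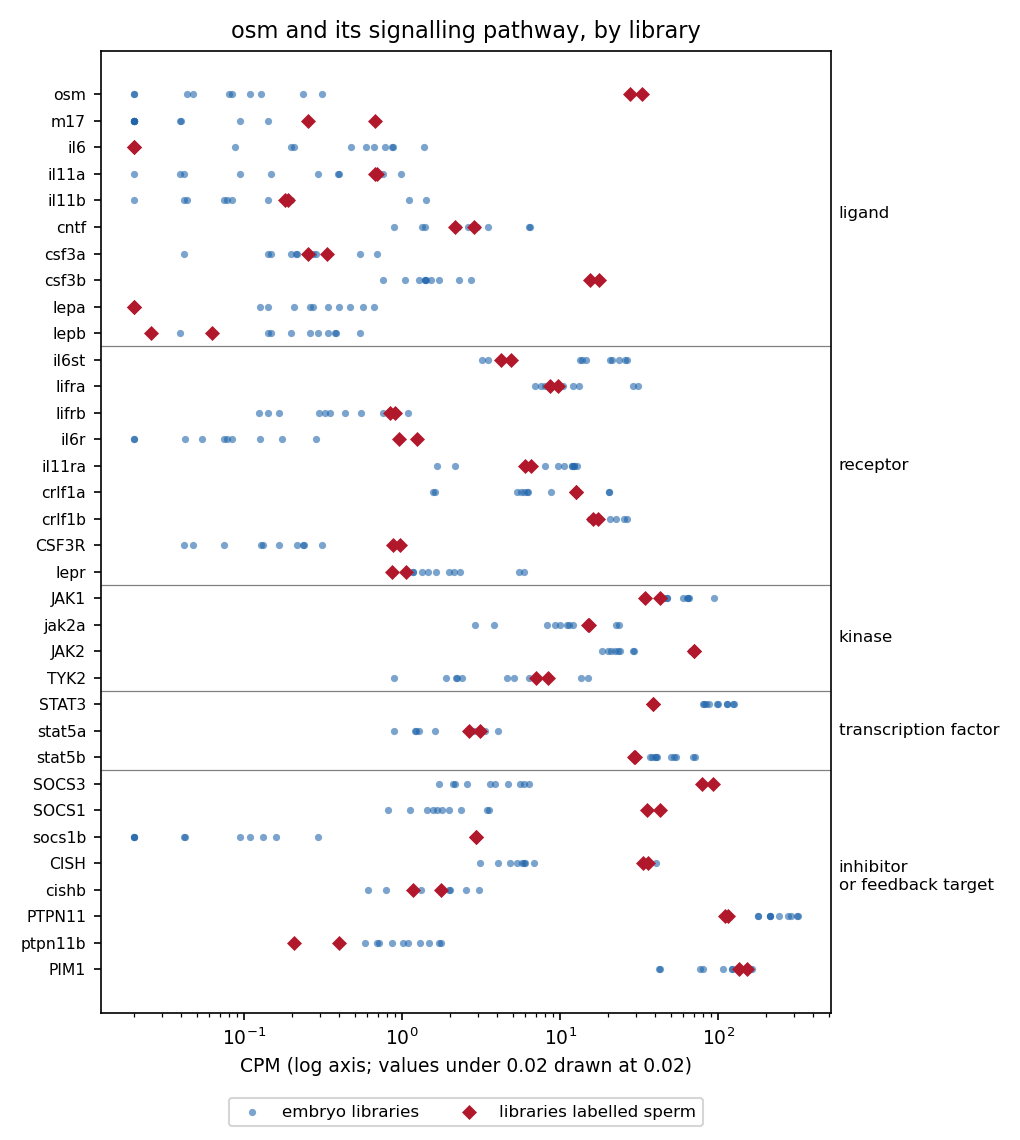
The level in CPM (log axis, values under 0.02 drawn at 0.02) of osm and 33 other pathway genes in each library, grouped by role, with embryo libraries in blue and the 2 libraries labelled sperm as red diamonds. For osm, csf3b, SOCS3, SOCS1 and socs1b both diamonds lie to the right of all 10 embryo libraries, and for STAT3 to their left.

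The gonad cell types behind the libraries labelled sperm were checked with 20 lists of markers and functions. osm was in none of them, and none of their genes met the rule. Beside each count of calls stand the shares over all genes, 36.1% higher and 32.6% lower. All 27 oocyte genes tested were higher than in embryos, with a median log2 difference of 5.72, and their summed level was 28058 and 34258 CPM against 356 to 3399 CPM in embryos. The egg coat gene zp3a.1 was higher by 6.45 ± 0.28 (SE; edgeR, adjusted p = 4.89e-08), and zp3e and zp3b by 6.17 and 5.72. The summed level of 64 flagellum genes, at 297 and 328 CPM, lay within the embryo range of 287 to 377 CPM. In that list 36 were higher (56.3%), 9 lower (14.1%) and 19 not called, with a median log2 difference of 1.09 beside 0.05 over all genes. CFAP20, an axoneme gene, was higher (1.83 ± 0.28, adjusted p = 0.000173) and odf2b, of the outer dense fibres and centrosome, lower (-1.94 ± 0.26, adjusted p = 6.9e-05). The latter averaged 104 CPM in embryos and 26.6 CPM in the libraries labelled sperm. Of 16 spermatid and sperm genes 7 were higher (43.8%), 2 lower (12.5%) and 7 not called, with a median of 0.85. Their sum of 155 and 155 CPM was within the embryo range of 139 to 185 CPM. Of the 30 symbols of that list 14 matched no gene, so those markers were not examined.

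Of 24 germline and piRNA genes 19 were higher (79.2%, beside 36.1% of all genes) and 2 lower. Among the higher were ca15b, by 5.84 ± 0.26, and the Tudor gene TDRD6, by 3.08 ± 0.22 (edgeR, adjusted p = 4.89e-08 and 8.38e-07). The 2 lower genes were DDX4 and ddx43 (log2 differences -1.42 and -1.06, adjusted p = 0.000701 and 0.00396). Of 27 meiosis genes 16 were higher (59.3%) and 4 lower (14.8%), with SYCP1 of the synaptonemal complex at 176 CPM on average against 6.85 CPM in embryos. SYCP3 was not called (log2 difference -0.73, edgeR, adjusted p = 0.0636), and the lower genes were MSH4, MSH5, MND1 and ankrd31. The lower genes of the meiosis list numbered 1 without replicate 1 of the libraries labelled sperm and 7 without wild-type replicate 1 or without replicate 2. Among somatic gonad lists, 13 of 20 Sertoli genes were higher (65.0%, and 8 genes against null embryos alone) and 3 lower. Their sum was 39.7 and 31.9 CPM against 14.98 to 24.2 CPM. The median level of the Sertoli genes was 1.29 CPM in the libraries labelled sperm and 0.454 CPM in embryos. The highest, SOX9 (ENSDARG00000043923), averaged 13.2 CPM against 2.17 CPM in embryos, and gsdf, a growth factor of the supporting cells, 2.69 CPM. The other SOX9 gene (ENSDARG00000003293), a CLDN11 gene (ENSDARG00000030723) and an INHBB gene (ENSDARG00000040777) were lower (log2 differences -2.34, -1.85 and -1.51). The listed symbols sox9a and sox9b both matched SOX9, so which identifier is which paralog was not told apart. Whether the Sertoli and granulosa lists separate these cell types was not tested. Of 15 granulosa and theca genes 6 were higher (40%) and 4 lower (26.7%), shares near those of all genes, at a sum of 20.2 and 19.0 CPM against 20.6 to 111 CPM. The genes called higher were CYP19A1, both FOXL2 genes, hsd17b1, RSPO1 and PGR, by log2 differences from 1.18 to 6.50. The median level of the list in the libraries labelled sperm was 0.932 CPM. In the embryos 1 gene of the list had no read, and a fitted value for it is no bound. The mean CPM of RSPO1 went the other way, at 5.58 in the libraries labelled sperm and 6.71 in embryos. Its log2 difference of 1.18 is taken from the mean of the embryo groups on the log scale. WNT4, a FST gene (ENSDARG00000052846) and both PTGS2 genes were lower. PTGS2 (ENSDARG00000010276) averaged 23.2 CPM in embryos and 3.02 CPM in the libraries labelled sperm. The 23 steroidogenic genes (15 or 65.2% higher, 2 lower) summed to 1448 and 1546 CPM, above their embryo range of 209 to 574 CPM. Most of that sum came from SCARB1, a lipoprotein receptor, and CYP11A1 (ENSDARG00000002347), the side-chain cleavage enzyme, at means of 744 and 399 CPM. The 2 lower genes were cyp11c1 and akr1a1a (log2 differences -5.47 and -3.33, edgeR, adjusted p = 4.35e-05 and 0.00388). The other CYP11A1 gene was not called (0.33, adjusted p = 0.659).

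Immune cells are a main source of oncostatin M in mammals. The 26 myeloid genes summed to 143 and 145 CPM within an embryo range of 88.1 to 439 CPM. In the libraries labelled sperm their median was 0.716 CPM, and the highest were nccrp1, CEBPB and il1b at 62.3, 27.6 and 18.1 CPM. The 4 lower genes were LCP1, cybb, CEBPB and an MFAP4 gene (ENSDARG00000090557), at log2 differences from -6.40 to -1.68. Of the 26 myeloid genes 15 were higher (57.7%, beside 36.1% of all genes). Fewer were higher without replicate 2 of the libraries labelled sperm and in DESeq2 (9). Over all genes the higher calls also fell in both settings (to 6794 from 8193 in DESeq2). The 22 lymphocyte genes summed to 159 and 124 CPM, below an embryo range of 370 to 738 CPM, while 11 were higher (50.0%; 7 in DESeq2 and with every library as a sample), 4 were lower and the median log2 difference was 1.30. A few genes that embryonic cells also use held most of that sum: CXCR4 (ENSDARG00000041959), a chemokine receptor, averaged 232 CPM in embryos and 10.8 CPM in the libraries labelled sperm, and EOMES, a T-box factor, 22.7 and 97.3 CPM. Of 18 antigen presentation genes 13 were higher (72.2%) and 2 lower, and fewer of each without replicate 2 of the libraries labelled sperm, as over all genes. The list summed to 1324 and 1514 CPM, of which ctss2.1 alone held 1319 CPM on average, and mhc2dab had no read in either library. Endothelial genes (5 of 15 higher, 4 lower; 7 lower with every library as a sample) summed to 46.8 and 47.3 CPM, above 20.4 to 34.3 CPM in embryos, and the shares called were near those of all genes. Stromal genes summed to 63.8 and 60.9 CPM, below 103 to 155 CPM. Of 22 stromal genes 10 were higher and 8 lower, and fewer of each without replicate 1 or 2 of the libraries labelled sperm, as over all genes. Red blood cell and thrombocyte genes summed to 21.2 and 32.2 CPM within 14.0 to 45.8 CPM (6 of 15 higher, 2 lower). The part of these cells in the osm level was not tested. In lists of other organs, higher and lower genes numbered 3 and 6 of 15 for liver, 5 and 2 of 10 for pancreas and 9 and 8 of 23 for intestine and kidney (4 and 5 without replicate 1 of the libraries labelled sperm). They numbered 5 and 5 of 20 for neurons (3 lower without replicate 2 of the libraries labelled sperm and 8 without wild-type replicate 2) and 4 and 3 of 12 for muscle, where the higher genes numbered 1 and 0 without replicate 1 or 2. In the skin list 2 of 19 genes were higher (10.5%) and 10 lower (52.6%).

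**Figure D4:**
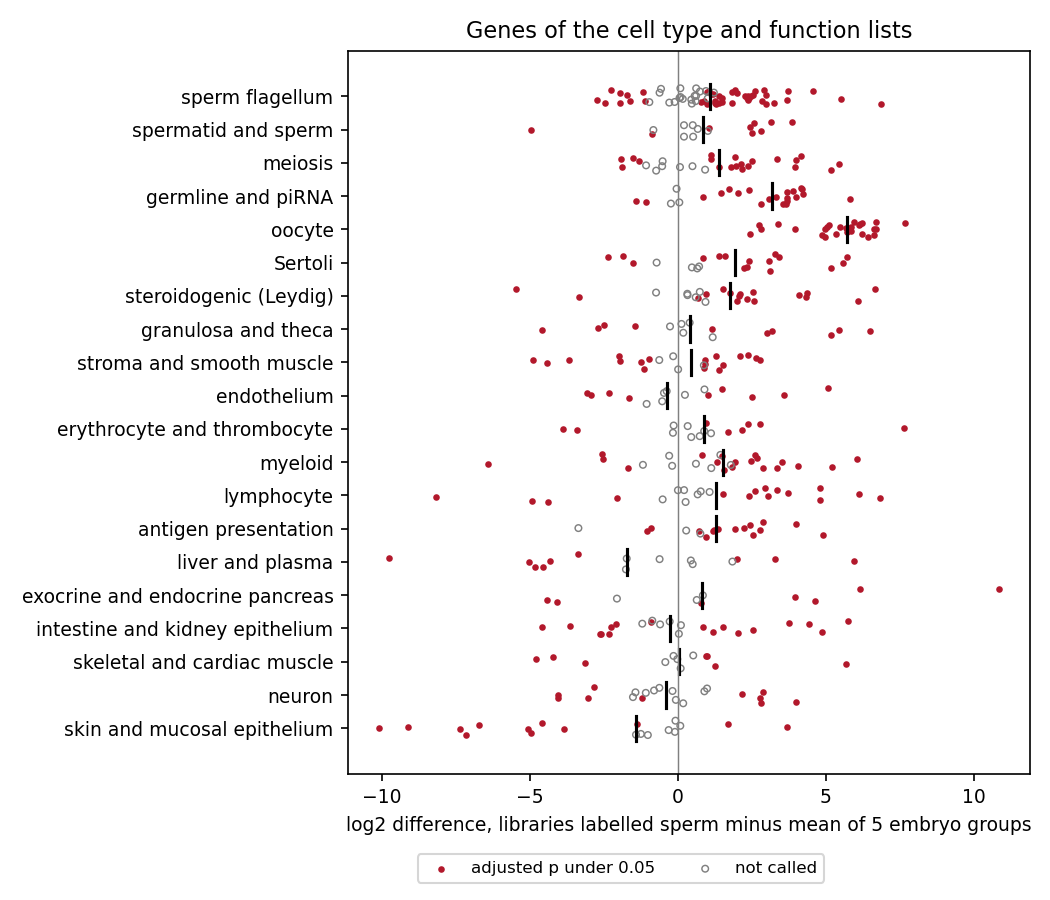
The log2 difference between the libraries labelled sperm and the mean of the 5 embryo groups for each gene of the 20 lists, red where the adjusted p was under 0.05, with the list median as a black bar. The oocyte median stands at 5.72, that of the flagellum list at 1.09 and that of the skin list at -1.41; a gene with no read on a side has a fitted value that is no bound.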

How the data were processed

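The authors deposited whole-number read counts per Ensembl gene, without normalization, in 1 table headed Zv10. Libraries were stranded TruSeq after Ribo-Zero depletion of Trizol-extracted RNA, per the labels' protocols. Novoalign 2.8 and DESeq2 are named in the submitters' processing notes, with no role. No source used here gives the counter, annotation release or strand setting, so reads of antisense partners cannot be told apart. The lowest maximum over libraries was 10 counts. All 12 value columns matched a sample by title, and 20669 identifiers (90.9%) were given a symbol. The member and the lists were chosen with earlier results of these data known, and the pathway list after the member was known; an item of that list is not reported here. List symbols were matched without regard to case, and those ending in a or b also to the family symbol in capitals. That step can add paralogs that were not listed, such as a further PTGS2 gene, and took itga2b to ITGA2. Symbols that matched no gene were left out. They included 11 of 38 in the meiosis list, 11 of 32 for lymphocytes, 11 of 20 for pancreas and 10 of 21 for muscle.

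CPM were computed over column totals. No transcript lengths were used, so CPM values of different genes are not compared as molecule numbers. Counts were tested in edgeR 4.0.16 (R 4.3.3) with the robust quasi-likelihood test, TMM scaling, filterByExpr by group, 5% false discovery rate, and near-identical pairs (chi-square per degree of freedom under 1.5 for genes of 20 or more counts in a pair) summed into 1 sample. This gave 8 samples with 2 residual degrees of freedom and a common coefficient of variation of 0.262. P-values measure only the spread between samples within wild type and within the libraries labelled sperm, since the summed groups add none. An SE is the log2 difference over the root of the F statistic. The fit was tested on simulated data. Alternatives were DESeq2 1.42.0, other scaling, no filter, every library as a sample, a replicate block, other limits of the rule and each library left out. Named genes were the member, those nearest its limits, the highest of each list and, chosen after their values were seen, pathway genes by role and genes admitted by a higher embryo limit. The range of total counts and the intervals are given with the results. Intervals cover counting error only.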

Additional observations from a re-analysis of the deposited data

How the results depend on the processing

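The number of genes that met the rule was 3 with a floor of 10 CPM (osm, igl4c1 and ENSDARG00000034092), 0 with a floor of 40 CPM, 0 with an embryo limit of 0.2 CPM, 5 with a limit of 1 CPM and 3 with only the 8 shield libraries. With a limit of 2 CPM, chosen after seeing the data, it was 21. It stayed 1, osm, with TMM effective library sizes, with DESeq2 size factors, with the limit set on the mean of each embryo group, and from 1 to 1 when each library was left out in turn. Genes called higher and lower by edgeR numbered 8193 and 7399, from 6027 to 9453 and from 5223 to 8647 when each library was left out, and 6794 and 6788 in DESeq2. With every library as a sample they numbered 8984 and 8462, and with a replicate block 8967 and 8434. The labels do not say what a replicate number shares, and its block changed the counts by little; differences between replicates in the libraries labelled sperm correlated at 0.195 with those in wild type and between -0.0193 and 0.0416 with the near-identical pairs. Of 45 list genes, 29 kept direction and side of the threshold under every alternative. Against null embryos alone JAK1 turned to 0.0826, lifra to 0.117 and PIM1 to -0.279 on the log2 scale, none of them called in the main test, and the cause was not tested. The osm level in embryos rests on 24 reads, so differences of a few reads there were not resolvable at this depth.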
